A study of Mus musculus with 9 samples.

Results

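miR-484 and miR-320 (mmu-miR-484 and mmu-miR-320 in the deposited table) are microRNAs (miRNAs) whose precursors reach Dicer without having been cut by Drosha. They are 2 of the 1164 entries of that count table and were picked by name, for this mode of biogenesis, with their counts in all 9 libraries known. Their levels across the cell lines are therefore given as a description, and no p-value is printed for either. Both were listed in the table with counts in every library and passed the filter on low counts in every comparison.

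The libraries hold small RNA from small extracellular vesicle (smEV) pellets of immortalised mouse kidney medullary (KM) cells, kept for 24 h without serum in all groups. There were 3 libraries from Bbs4-/- cells, 3 from Bbs6-/- cells and 3 from wild-type (WT) cells. Bbs4 is a subunit of the BBSome, the adaptor complex of ciliary trafficking, and Bbs6 belongs to the chaperonin complex needed to assemble it. Each genotype was represented by a cell line of its own, so genotype and line cannot be told apart, and the table holds no Bbs4 or Bbs6 transcript to check the labels.

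Most miRNAs are cut out of a long primary transcript by Drosha and its partner Dgcr8 in the nucleus, exported, and then cut by Dicer to the mature length. The precursors of miR-484 and miR-320 are instead short RNA polymerase II transcripts whose 5′ end is the transcription start site and carries a cap, so that no cut by Drosha is needed before export and dicing. miR-484 is known to target the mitochondrial fission gene Fis1 and has been used as a reference miRNA in blood plasma.

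The genes of both miRNAs lie just upstream of the start of a protein-coding transcript on the opposite strand. Mir484 is at chr16:14159626-14159692 on the plus strand of GRCm38 (GENCODE vM21), 359 bp from the start of the nearest transcript of Marf1, a regulator of meiosis in oocytes. An untranslated exon region of another Marf1 transcript also overlaps 19 bp of Mir484. Mir320 is at chr14:70443510-70443591 on the plus strand, 63 bp from the start of Polr3d, which encodes a subunit of RNA polymerase III, and overlaps no protein-coding exon. Of the 2202 miRNA genes in the annotation, 29 (1.32%) lay as close as Mir484 to such a divergent start, and 11 (0.500%) lay as close as Mir320. These distances were compared after the positions had been seen.

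The mature sequence of miR-484 is shown because its seed (bases 2 to 8, in capitals) sets which transcripts it can pair with, together with the 5p arms of miR-30a and miR-30c, the 2 miRNAs whose levels followed it most closely, and miR-1839-5p and miR-1983, which had the highest mean levels in WT smEVs among the other noncanonical miRNAs described below. Sequences are from RefSeq (GRCm38.p6), which gave a sequence for 1 of the 2 members. The deposited entries do not name the arm that was counted.
miR-484: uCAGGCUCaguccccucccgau
miR-30a-5p: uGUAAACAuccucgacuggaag
miR-30c-5p: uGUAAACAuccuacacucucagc
miR-1983: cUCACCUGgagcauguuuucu
miR-1839-5p: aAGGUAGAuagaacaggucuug
Mature miR-484 spans chr16:14159630-14159651 on the plus strand, starts at base 5 of its annotated 67-base hairpin, and is the only mature product listed for it. Of 1005 hairpins in the RefSeq table, 347 (34.5%) likewise listed 1 product. The seed CAGGCUC was found in no other of the 1674 distinct mature sequences there. With 63.6% G and C, miR-484 was richer in these bases than 82.3% of them. miR-30a-5p and miR-30c-5p share the seed GUAAACA, which differs from that of miR-484. They lie at chr1:23272274-23272295 (plus strand) for miR-30a-5p, and at chr1:23291714-23291736 (plus strand) and chr4:120769584-120769606 (minus strand) for miR-30c-5p. miR-1983 lies at chr13:21896930-21896950 (minus strand) and miR-1839-5p at chr7:81529919-81529940 (plus strand).

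The WT libraries, with 64118 to 130905 miRNA counts in total, were all shallower than the Bbs4-/- libraries (176935 to 457163) and the Bbs6-/- libraries (192654 to 423784). Levels are given as CPM, the count as a share of the library total after edgeR's TMM scaling, whose factors ran from 0.824 to 1.28. A read is a whole mature miRNA, so levels of different miRNAs were compared without a length correction. CPM is a share of the counted miRNAs, so a rise of 1 miRNA and a fall of the rest cannot be told apart. Replicate 2 of Bbs6-/- stood apart from replicates 3 and 4, since chi-square divided by its degrees of freedom was 86.2 and 110.1 against them but 12.4 between the latter, and 18.1 to 39.8 for the other 6 pairs within a line. The Bbs6-/- means, fold changes and ratios of miR-484 and miR-320 below are given with and without it. All 5 epithelial markers (miR-200a, miR-200b, miR-200c, miR-141 and miR-429) had counts in both mutants, and miR-141 had none in WT. Their summed level ranged over 16968 to 18926 CPM for Bbs4-/- libraries, 16551 to 21410 CPM for Bbs6-/- libraries and 9993 to 13305 CPM for WT libraries. The 4 mesenchymal markers (miR-143, miR-145a, miR-199a and miR-214) had sums of 123 to 273, 20.0 to 71.8 and 80.1 to 162 CPM in the same order, with miR-145a and miR-214 at 0 in all lines. The 4 kidney markers (miR-192, miR-194-1, miR-194-2 and miR-215) had sums of 145.4 to 196, 80.1 to 191 and 19.4 to 169 CPM, with miR-194-1 at 0 throughout and miR-194-2 at 0 in WT. The 6 blood markers (miR-451a, miR-486a, miR-144, miR-142a, miR-223 and miR-150) had sums of 60.5 to 126, 37.6 to 71.3 and 103 to 170 CPM, with miR-150 at 0 in Bbs4-/- and WT, miR-142a at 0 in Bbs6-/- and WT, and miR-223 at 0 in Bbs6-/-. The part of these markers, of depth and of library scaling in the levels below was not tested.

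miR-484 was higher in Bbs4-/- smEVs than in those of either other line. Its counts were 239, 400 and 807 in Bbs4-/-, 140, 180 and 217 in Bbs6-/- and 84, 108 and 93 in WT. After scaling it had 1511, 1792 and 1879 CPM in replicates 1, 2 and 3 of Bbs4-/-. Bbs6-/- held 768, 615 and 621 CPM in replicates 2, 3 and 4, and WT held 1021, 962 and 601 CPM in replicates 1, 3 and 4. Every Bbs4-/- library thus lay above every other library, while the Bbs6-/- and WT libraries overlapped, with replicate 4 the lowest of WT. As shares of the unscaled totals the gap was small, with 1351 CPM in Bbs4-/- replicate 1 and 1310 CPM in WT replicate 1. The share of all miRNAs that separate the lines in this way was not computed, so nothing particular to miR-484 is read from it.

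**Figure D1:**
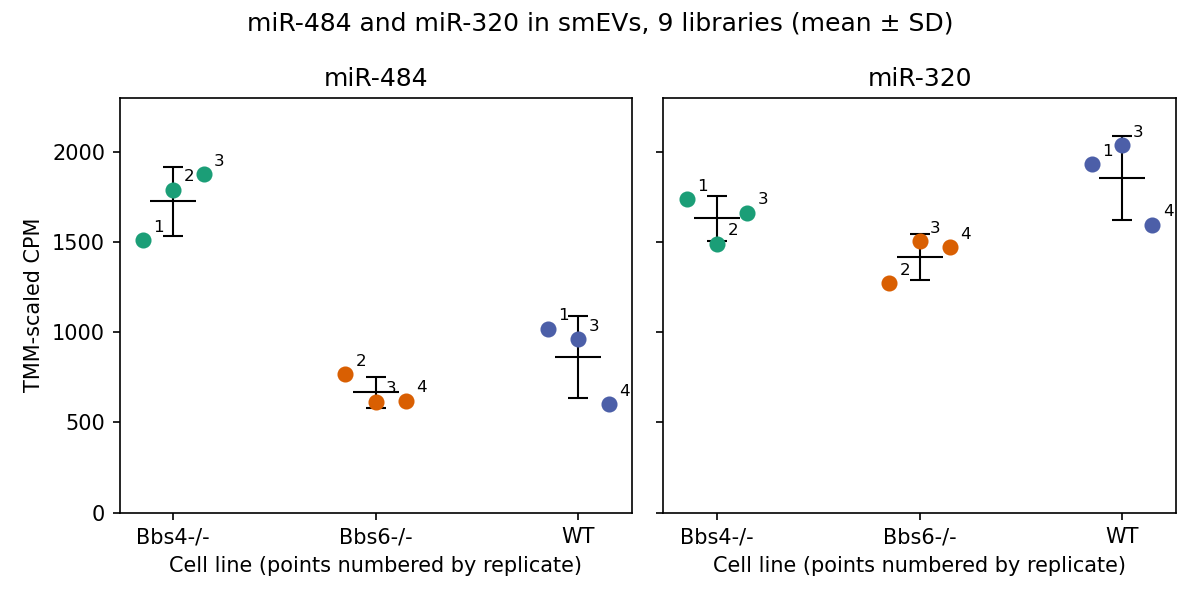
TMM-scaled CPM of miR-484 (left) and miR-320 (right) in each library of the Bbs4-/-, Bbs6-/- and WT lines; numbered points are replicates and bars are the mean ± SD (n = 3). For miR-484 the Bbs4-/- libraries (1511 to 1879 CPM) lie above all others (601 to 1021 CPM), whereas all libraries hold 1273 to 2039 CPM of miR-320.

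The mean level of miR-484 was 1727 ± 192.2 CPM in Bbs4-/-, 668 ± 86.7 CPM in Bbs6-/- and 861 ± 227 CPM in WT (SD, n = 3 each). Without replicate 2 the Bbs6-/- mean was 618 ± 4.21 CPM (SD, n = 2). In the order of levels Bbs4-/- came first. The WT and Bbs6-/- means differed by less than the SD in WT with replicate 2 of Bbs6-/-, and by slightly more than that SD without it. By count it ranked 54 to 62 among all entries in the Bbs4-/- libraries, 72 to 81 in Bbs6-/- and 64 to 73 in WT. In the shallowest library, WT replicate 1, its 84 counts corresponded to 1310 CPM of the unscaled total, with an exact Clopper-Pearson 95% interval from 1045 to 1622 CPM that covers counting error only.

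miR-320 was held at a more even level by the 3 lines. Its counts were 275, 333 and 715 in Bbs4-/-, 232, 441 and 515 in Bbs6-/- and 159, 229 and 247 in WT. The Bbs4-/- libraries had 1739, 1492 and 1665 CPM in replicates 1, 2 and 3, the Bbs6-/- libraries 1273, 1507 and 1474 CPM in replicates 2, 3 and 4, and the WT libraries 1933, 2039 and 1597 CPM in replicates 1, 3 and 4. All WT libraries lay above all Bbs6-/- libraries, a separation whose share over all miRNAs was not computed, and Bbs4-/- overlapped with both. The means were 1632 ± 127 CPM in Bbs4-/-, 1418 ± 127 CPM in Bbs6-/- and 1856 ± 231 CPM in WT (SD, n = 3 each). Without replicate 2 the Bbs6-/- mean was 1491 ± 23.4 CPM (SD, n = 2). In the order WT, Bbs4-/- and Bbs6-/-, the libraries of neighbouring lines overlapped after TMM scaling. As shares of the unscaled totals they did not overlap. There WT held 1887 to 2480 CPM, Bbs4-/- 1554 to 1564 CPM and Bbs6-/- 1204 to 1371 CPM. These overlaps thus depended on the scaling, and the share of all miRNAs separated on unscaled totals was not computed. Its rank by count was 49 to 64 over the 9 libraries.

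The pair was also compared as a ratio within each library, which no scaling of libraries can change. The number of miR-484 counts per miR-320 count was 0.869, 1.20 and 1.13 in replicates 1, 2 and 3 of Bbs4-/-. It was 0.603, 0.408 and 0.421 in replicates 2, 3 and 4 of Bbs6-/-, and 0.528, 0.472 and 0.377 in replicates 1, 3 and 4 of WT. Bbs4-/- libraries thus held about as many counts of miR-484 as of miR-320, and every library of the other lines held fewer. How far counts of different miRNAs reflect their relative amounts in smEVs was not tested. The mean log2 ratio was 0.079 ± 0.25 in Bbs4-/-, -1.09 ± 0.31 in Bbs6-/- and -1.14 ± 0.25 in WT (SD, n = 3 each). Without replicate 2 it was -1.27 in Bbs6-/-. The ratio in Bbs4-/- was 2.32-fold that in WT and 2.25-fold that in Bbs6-/-, or 2.55-fold that in Bbs6-/- without replicate 2. Bbs6-/- minus WT was 0.049 on the log2 scale with replicate 2 and -0.13 without it, so its sign turned on that library, and both values were smaller than the SD in WT. Counting error alone gives a standard error of 0.074 to 0.19 to the log2 ratio of a library.

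**Figure D2:**
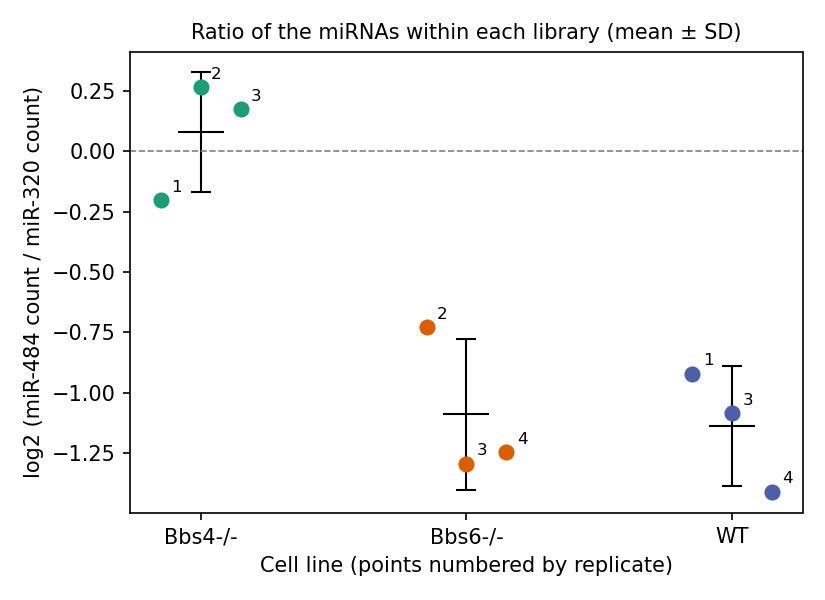
log2 of the miR-484 count divided by the miR-320 count in each library of the 3 lines; numbered points are replicates, bars are the mean ± SD (n = 3), and the dashed line marks equal counts. Bbs4-/- libraries lie around 0 (ratios of 0.869 to 1.20), and all Bbs6-/- and WT libraries lie below -0.72 (ratios of 0.377 to 0.603).

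In the edgeR fit over all miRNAs, with standard errors from the quasi-likelihood F, Bbs4-/- exceeded WT in miR-484 by 0.91 on the log2 scale (standard error 0.26), a 1.88-fold higher level. Of the 308 miRNAs in that contrast, 134 (43.5%) differed by more in either direction. Such shares, here and below, take in miRNAs with few counts and large standard errors. In Bbs6-/- against WT miR-484 was at -0.35 (standard error 0.29), or -0.40 without replicate 2 of Bbs6-/-. Scaling by total count instead of TMM gave -0.75. Of 298 miRNAs, 224 (75.2%) differed by more there. Compared directly, Bbs4-/- exceeded Bbs6-/- by 1.37 on the log2 scale (standard error 0.26), a 2.59-fold higher level, and by 1.39 without replicate 2 of Bbs6-/-. Of the 309 miRNAs between the mutants, 70 (22.7%) differed by more in either direction. The contrasts with WT share the WT libraries.

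For miR-320 the log2 difference from WT was -0.29 in Bbs4-/- and -0.36 in Bbs6-/- (standard errors 0.22 and 0.23), and -0.24 in Bbs6-/- without its replicate 2. With total counts these were -0.48 and -0.78, and without WT replicate 1 the Bbs4-/- value was -0.13. Between the mutants the difference was 0.20 (standard error 0.21), and 0.029 without replicate 2 of Bbs6-/-. More miRNAs than not differed by more than miR-320 in every contrast, with 236 of 308 (76.6%) in Bbs4-/- against WT, 222 of 298 (74.5%) in Bbs6-/- against WT and 247 of 309 (79.9%) between the mutants. Scaling by total count shifted the median log2 fold change of all miRNAs by -0.18 in Bbs4-/- and -0.43 in Bbs6-/- against WT, and by 0.11 between the mutants. The members moved with it, by -0.18, -0.41 and 0.10 on average.

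A miRNA was called differentially loaded if its adjusted p was under 0.1 and its log2 fold change was 2 or more in size. By this rule 0 of the 2 members were called in any comparison by edgeR's quasi-likelihood test or by DESeq2, where edgeR called 6.17% of all miRNAs in Bbs4-/- against WT, 4.03% in Bbs6-/- against WT and 3.88% between the mutants. Without the fold criterion, 1 of the 2 members, miR-484, was past an adjusted p of 0.1 (edgeR) in Bbs4-/- against WT, beside 15.3% of all miRNAs, 0 were in Bbs6-/- against WT, beside 15.1%, and 1, again miR-484, was in the direct contrast, beside 8.09%. The members with an unadjusted p under 0.05 (edgeR) were 1, miR-484, in Bbs4-/- against WT, beside 26% of all miRNAs, 0 in Bbs6-/- against WT, beside 22.1%, and 1, miR-484, in the direct contrast, beside 16.2%. As the members were chosen with these contrasts known, nothing is read from these counts. In total 12 miRNAs were called higher and 7 lower in Bbs4-/- against WT, and 8 and 4 in Bbs6-/- against WT. Without replicate 2 of Bbs6-/-, 18 instead of 12 were called in Bbs6-/- against WT and 17 instead of 12 between the mutants. With total counts and all libraries, 12 were called higher and 11 lower in Bbs4-/- against WT, and 8 and 9 in Bbs6-/- against WT.

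Across the 108 miRNAs with a mean of at least 50 counts, the group means of log2 CPM of miR-320 spanned 0.38, and 21 miRNAs had a smaller span. Its pooled SD within lines was 0.15, and 6 miRNAs had a smaller one. The group means of miR-484 spanned 1.36, more than those of 84 other miRNAs, with a pooled SD within lines of 0.28. The median miRNA had a span of 0.73 and a pooled SD of 0.29. The levels of the members had a Pearson correlation of 0.27 over the 9 libraries on the log2 CPM scale, the 34th highest of miR-484 with the 107 others, and of 0.18 over 8 without replicate 2 of Bbs6-/-. Libraries of a line share that line, so this is a description only.

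By the same measure, miR-484 was followed most closely by miR-30a (r = 0.91), miR-30c (r = 0.87), miR-128 (r = 0.80), miR-3968 (r = 0.76) and miR-185 (r = 0.71), over 9 libraries that share their scaling. miR-30a and miR-30c are abundant in kidney epithelium. miR-30a had a mean of 45966 CPM in Bbs4-/-, 29225 CPM in Bbs6-/- and 28643 CPM in WT. miR-185 had 545, 185 and 256 CPM in the same order. All 5 had their highest mean in Bbs4-/-, which their choice by correlation over the same libraries largely sets. Without replicate 2 of Bbs6-/-, r was 0.70 to 0.93 and 4 of the 5 stayed among the first 5, with miR-185 at 7th.

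The 5 miRNAs most like miR-320 were miR-100 (r = 0.88), miR-10b (r = 0.85), miR-501 (r = 0.78), miR-5126 (r = 0.76) and miR-222 (r = 0.74). Each had its highest mean in WT and its lowest in Bbs6-/-, the order of miR-320 itself, which the choice likewise largely sets. The size differed, since miR-10b had 11051 CPM in WT, 5972 CPM in Bbs4-/- and 3820 CPM in Bbs6-/-. Without replicate 2 of Bbs6-/-, in which miR-100 and miR-10b were at their lowest, r was 0.77 to 0.84 and 4 of the 5 stayed among the first 5, with miR-10b at 6th. None of the 5 was also among those most like miR-484.

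**Figure D3:**
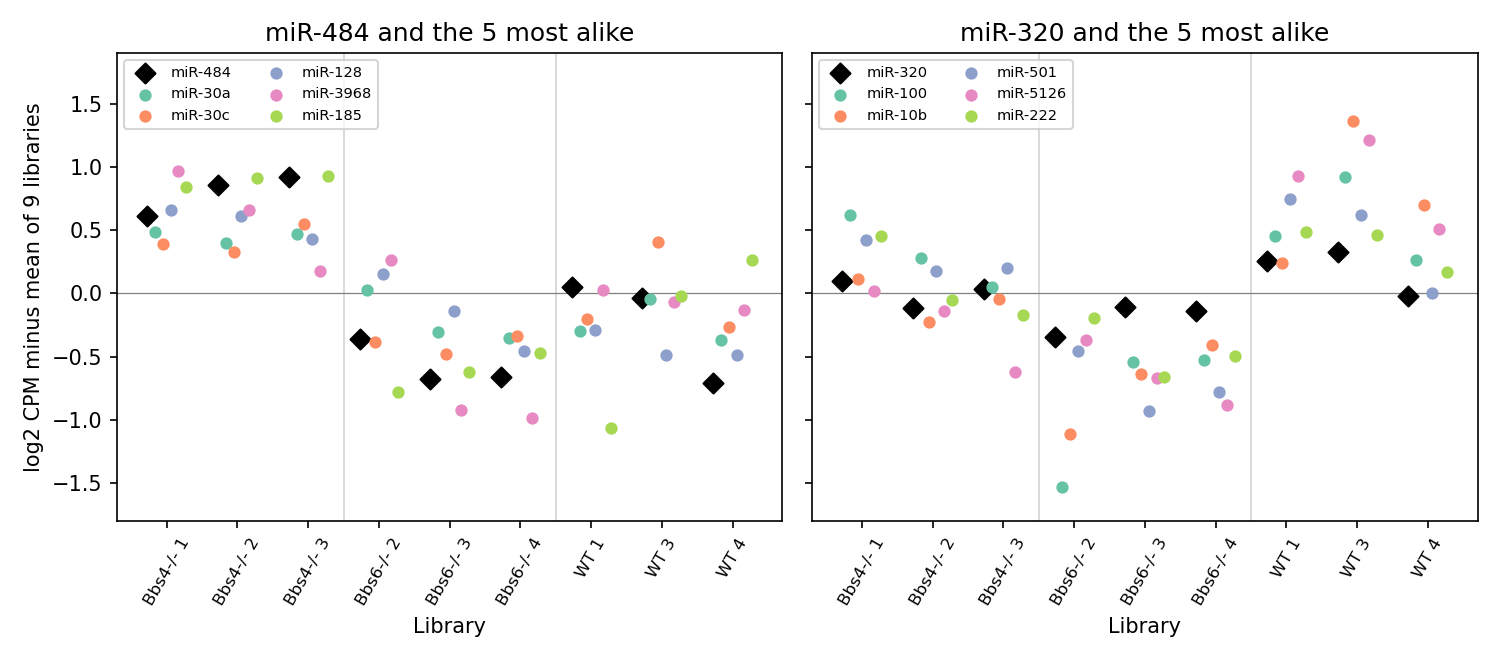
log2 CPM of each library minus the mean of the 9 libraries, for miR-484 (left) and miR-320 (right, black diamonds) and the 5 miRNAs with the highest correlation to each (coloured circles). In the left panel the miR-30a, miR-30c, miR-128, miR-3968 and miR-185 points are above 0 in all Bbs4-/- libraries, and in the right panel miR-320 stays closer to 0 than miR-5126 in each WT library.

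In the order of mean level over the 9 libraries, miR-320 was 57th with 1635 ± 240 CPM (SD over 9 libraries of 3 lines), between miR-429 (1772 CPM) and miR-206 (1640 CPM) above it and miR-15b (1501 CPM) and miR-28a (1487 CPM) below. miR-484 was 66th with 1086 ± 512 CPM, between let-7j (1327 CPM) and miR-101b (1175 CPM) above and miR-106b (1082 CPM) and miR-96 (968 CPM) below. The neighbours were picked by mean level, so their closeness to the member is set by that choice.

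Other miRNAs that bypass a step of the canonical pathway were examined as a list of 7, chosen by their biogenesis. Earlier results of these data were known when the list was chosen, so its calls and p-values are a description. The paper had already reported miR-1983 as the only miRNA downregulated in both mutants. The list held the mirtrons miR-877, miR-1224 and miR-702, excised as introns by splicing, and miR-1839 and miR-664, from small nucleolar RNA transcripts. It also held miR-1983, which comes from a tRNA, and miR-451a, which is cut by Drosha and then by Ago2 instead of Dicer. Of the 7, 5 passed the filter on low counts. miR-1224 had no count in any library, where a count of 0 allows up to 6.98 to 36.5 CPM, and miR-702 had 5 counts in Bbs4-/-, 2 in Bbs6-/- and 0 in WT.

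1 of the 5 tested was called in Bbs4-/- and 1 in Bbs6-/- against WT, both times miR-1983 and both times lower, where edgeR called 2.27% and 1.34% of all miRNAs lower. Between the mutants 0 were called by edgeR or DESeq2, where edgeR called 3.88% of all miRNAs. An unadjusted p under 0.05 (edgeR) was found for 1 of the 5 in Bbs4-/- against WT, 2 in Bbs6-/- against WT and 0 between the mutants, beside 26%, 22.1% and 16.2% of all miRNAs. The median log2 fold change of the 5 was -0.38 in Bbs4-/- and -0.98 in Bbs6-/- against WT and 0.43 between the mutants, beside -0.015, -0.011 and 0.040 over all miRNAs. Without replicate 2 of Bbs6-/- the median of the 5 was -0.69 in Bbs6-/- against WT and 0.70 between the mutants, beside 0.022 and 0.0056 over all miRNAs. miR-1983 had 34, 25 and 26 counts in WT, 12, 5 and 5 in Bbs4-/- and 10, 5 and 3 in Bbs6-/-. Every WT count was above every mutant count although the WT libraries were the shallower. The share of all miRNAs so separated was not computed, so nothing particular to miR-1983 is read from this separation. By edgeR miR-1983 differed from WT by -3.08 in Bbs4-/- (adjusted p = 0.00504, standard error 0.65). In Bbs6-/- it differed by -3.40 (adjusted p = 0.0243, edgeR, standard error 0.72), both on the log2 scale. The Bbs6-/- value was -4.27 without replicate 2 (adjusted p = 0.000756, edgeR).

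miR-1839, the most abundant of the list, had 431 ± 31.4 CPM in Bbs4-/-, 373 ± 81.1 CPM in Bbs6-/- and 377 ± 167 CPM in WT (SD, n = 3 each). Its log2 fold changes were 0.056 and -0.022 against WT (standard errors 0.36 and 0.39, adjusted p = 0.979 and 0.991, edgeR) and 0.21 between the mutants (standard error 0.35, adjusted p = 0.811, edgeR). Without replicate 2, Bbs6-/- held 346 ± 93.3 CPM of miR-1839 (SD, n = 2), at -0.085 against WT and 0.22 between the mutants. The mirtron miR-877 had 63.0 ± 27.1, 29.4 ± 21.9 and 61.5 ± 32.0 CPM in Bbs4-/-, Bbs6-/- and WT (SD, n = 3 each), from 3 to 21 counts a library. The direct contrast of miR-877 was 1.06 (standard error 0.72, adjusted p = 0.533, edgeR), which was not called, and it was -0.98 in Bbs6-/- and -0.035 in Bbs4-/- against WT. Without replicate 2, Bbs6-/- held 35.9 ± 26.5 CPM of miR-877 (SD, n = 2), at -0.69 against WT and 0.70 between the mutants. miR-664 had 19 to 37 counts a line and log2 fold changes of -0.38, -0.23 and 0.019, each smaller than its standard error, the latter pair being -0.090 and -0.19 without replicate 2 of Bbs6-/-. miR-451a had 7, 3 and 1 counts in Bbs4-/-, 3, 0 and 0 in Bbs6-/- and 4, 6 and 7 in WT. Its fitted log2 fold changes of -1.52, -3.29 and 1.92 (standard errors 1.04, 1.42 and 1.47) rest on these few counts. The summed counts of Bbs6-/- against WT, over scaled totals, had a ratio of 0.0748 with an exact 95% interval from 0.0140 to 0.259 that covers counting error only. miR-451a was not called in Bbs6-/- against WT (adjusted p = 0.207, edgeR), but was called lower when replicate 2 of Bbs6-/-, which held its 3 counts, was left out (adjusted p = 0.0283, edgeR).

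**Figure D4:**
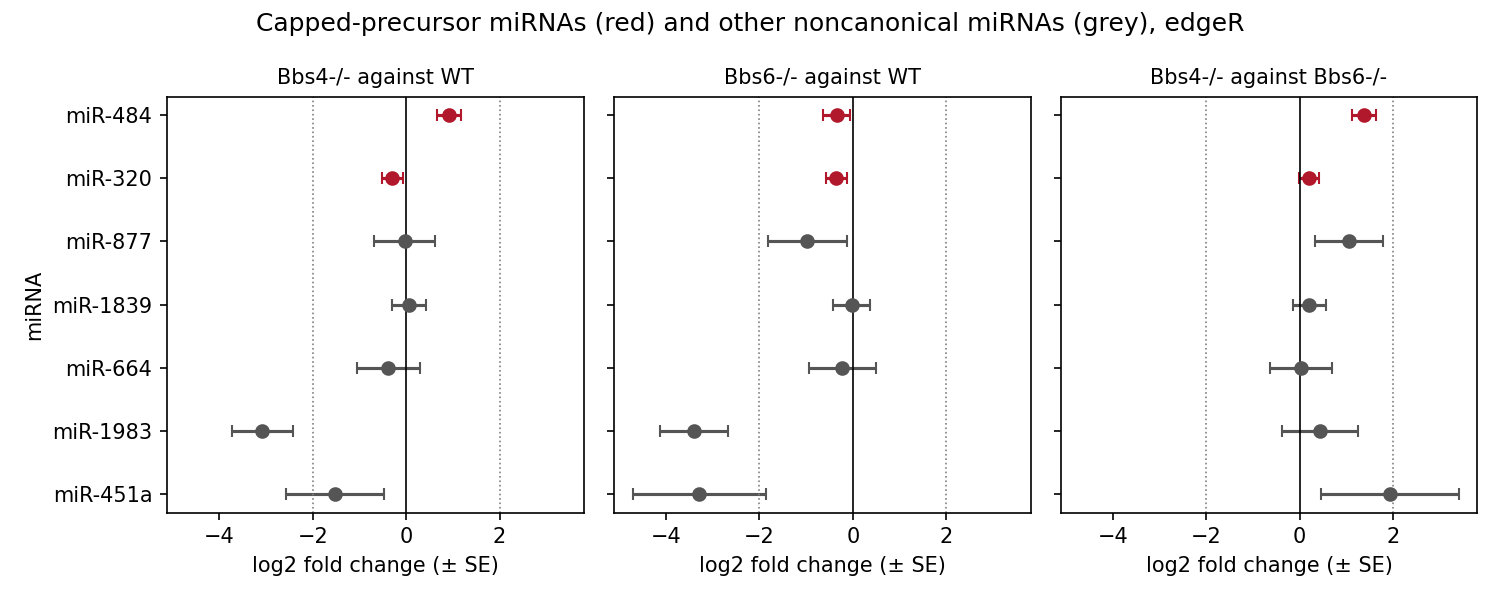
edgeR log2 fold changes (points) with standard errors (bars) of miR-484 and miR-320 (red) and of 5 other noncanonical miRNAs (grey) in the 3 comparisons; dotted lines mark the log2 fold change of 2 needed for a call. miR-484 is at 0.91, -0.35 and 1.37, miR-320 stays between -0.36 and 0.20, and miR-1983 lies beyond -2 against WT in both mutants, as does miR-451a in Bbs6-/-, at -3.29 from 3 counts and not called.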

How the data were processed

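Small RNA from smEV pellets was sequenced in 9 libraries, made with 15 PCR cycles and size-selected for 18 to 40 nt. The authors trimmed adapters with cutadapt 1.9, removed reads with low-quality calls, removed PCR duplicates by their molecular identifiers, dropped reads under 15 nt, and quantified miRNAs with miRDeep2, using the highest value where a miRNA was listed more than once. What the authors deposited are these counts, not normalized. The submitters' processing notes name GRCm38; the miRBase release was not given in the sources used here.

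Libraries were grouped by the genotype in the labels. The replicate numbers are those of the deposited columns, which for Bbs6-/- and WT differ from the labels. p-values measure the spread between preparations of 1 line each.

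The contrasts were fitted by edgeR 4.0.16 under R 4.3.3 (TMM, quasi-likelihood test, Benjamini-Hochberg adjustment over all miRNAs tested). Those with WT used 6 libraries and a minimum total of 6 counts, and the direct contrast 9 libraries and a minimum of 9. The standard error is the size of the log2 fold change divided by the square root of F. Correlations used log2 CPM with a prior count of 2 and miRNAs with a mean of at least 50 counts. Alternatives were DESeq2 1.42.0, its size factors, total counts, no filter, filterByExpr, other libraries in the fit, a replicate block, and leaving out each library. The likeness of miRNAs, the ratio differences and the list's values were also computed without Bbs6-/- replicate 2, a choice made after seeing the data. The test was tried on simulated counts first. A count of 0 was taken to allow 3 counts. Named miRNAs were the members, the noncanonical list, the 5 most alike and the nearest levels to each member. Members and lists were chosen with earlier results of these data known. Plots used matplotlib 3.10.9 (python 3.11.15).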

Additional observations from a re-analysis of the deposited data

How the results depend on the processing

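All log2 fold changes of miR-484 and miR-320 kept their sign under every alternative run. With total counts miR-320 was at -0.48 in Bbs4-/- and -0.78 in Bbs6-/-, and miR-484 at -0.75 in Bbs6-/- against WT. Between the mutants miR-320 was at 0.062 without a filter and at 0.048 with the 6 mutant libraries only. Leaving out each library in turn gave miR-320 from -0.37 to -0.13 (the latter without WT replicate 1) in Bbs4-/- and from -0.52 (without Bbs6-/- replicate 3) to -0.24 in Bbs6-/- against WT, and from 0.029 (without Bbs6-/- replicate 2) to 0.26 between the mutants, where it was 0.069 without WT replicate 1. For miR-484 it gave 0.72 to 1.19, -0.56 to -0.25, and 1.18 (without Bbs6-/- replicate 3) to 1.46 in the same order. The noncanonical list had 1 to 2 calls in Bbs6-/-, and the direct contrast had 7 (without Bbs4-/- replicate 1) to 17 calls over all miRNAs against 12. The mean log2 ratio of miR-484 to miR-320 stayed between -0.014 and 0.22 in Bbs4-/-, -1.27 and -0.99 in Bbs6-/-, and -1.25 and -1.002 in WT. The cause of these movements was not tested.

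The replicate numbers of the columns were also used as a replicate block. Same-numbered libraries of Bbs4-/- and WT had deviations correlated at 0.69 for both shared numbers. Those of Bbs6-/- and WT were at -0.46 and -0.011, and those of the mutants at -0.13 and -0.39. Each comparison had 2 shared numbers. The column names give only the numbers, so whether same-numbered libraries share a preparation cannot be told. The main fits used no block. With the block, miR-320 was at -0.15 in Bbs6-/- against WT and 21 miRNAs instead of 12 were called there. The block gave miR-484 0.67, -0.17 and 1.35 in the 3 comparisons, with standard errors of 0.34, 0.41 and 0.50.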
